A study of Mus musculus with 6 samples.

Results

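Pomt1, Pomt2 and Pomgnt1 are the 3 enzymes of protein O-mannosylation that were described here, out of 909 named genes measured on a glycan-focused Affymetrix array of mouse liver. They were chosen by gene symbol, through the RefSeq accession in each probe set identifier, and each was measured by 1 probe set, so 3 of 1246 probe sets in all. The series compares total liver RNA of wildtype male mice, labelled healthy, with that of male mice with insulin-deficient diabetes. Each group has 3 arrays, with 1 sample per array. The labels used here do not give the strain, the age or the way in which insulin was made deficient, nor do they state that the 3 arrays of a group stand for 3 animals. Should animals be shared, the p-values cover the spread between samples alone, which may be technical.

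O-mannosylation starts in the endoplasmic reticulum, where POMT1 and POMT2 act together as 1 complex and move mannose from dolichol-phosphate-mannose to serine or threonine of the target protein. POMGNT1 works later, in the Golgi, and adds N-acetylglucosamine to that mannose. The best known target is dystroglycan, a cell surface receptor whose O-mannose glycan carries the sugar repeat that binds laminin in basement membranes. Loss of any of the 3 enzymes is known for muscular dystrophy with eye and brain defects rather than for liver disease.

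The bases before the annotated start of each gene are printed because the 3 enzymes were followed across the same arrays. Pomt1 and Pomt2, partners in 1 complex, were both lowest on the same array, and any part of these bases in that was not tested. The 250 bases upstream were taken from RefSeq on GRCm38.p6, at chr2:32236390-32236639 on the + strand for Pomt1, chr12:87147903-87148152 on the - strand for Pomt2 and chr4:116150268-116150517 on the + strand for the first of 2 listed starts of Pomgnt1. All are written 5′ to 3′ in the direction of the gene, and capitals mark the short motifs that were found.
Pomt1: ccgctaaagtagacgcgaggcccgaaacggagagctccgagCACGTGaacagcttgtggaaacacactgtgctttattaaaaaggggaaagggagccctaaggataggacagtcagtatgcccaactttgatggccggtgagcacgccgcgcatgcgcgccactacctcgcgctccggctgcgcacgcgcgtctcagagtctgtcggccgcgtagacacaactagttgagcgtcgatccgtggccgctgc
Pomt2: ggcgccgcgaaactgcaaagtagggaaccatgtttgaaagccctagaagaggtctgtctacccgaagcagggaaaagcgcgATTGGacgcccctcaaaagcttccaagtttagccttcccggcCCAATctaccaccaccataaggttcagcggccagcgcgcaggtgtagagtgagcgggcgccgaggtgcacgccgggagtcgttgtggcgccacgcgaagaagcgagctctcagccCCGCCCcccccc
Pomgnt1: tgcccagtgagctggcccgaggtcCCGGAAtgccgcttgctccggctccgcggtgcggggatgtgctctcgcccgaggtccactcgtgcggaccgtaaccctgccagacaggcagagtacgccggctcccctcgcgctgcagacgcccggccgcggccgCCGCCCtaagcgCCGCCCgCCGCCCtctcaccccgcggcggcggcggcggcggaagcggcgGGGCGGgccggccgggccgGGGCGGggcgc

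All 3 windows were rich in G and C, at 60% for Pomt1, 62.4% for Pomt2 and 80.0% for Pomgnt1, against a median of 52.4% over 32851 RefSeq promoters of the same length. They held 27, 22 and 41 CpG dinucleotides, where the median promoter held 6. The motifs were searched on both strands, and none of those found overlapped another. The E-box with the letters CACGTG occurred at 1 place before Pomt1, 209 bases upstream, and in 6.02% of all promoters. The box with the letters CCAAT occurred at 2 places before Pomt2, 169 and 127 bases upstream, and in 33.9% of all promoters. The GC box, GGGCGG, occurred at 5 places before Pomgnt1 and 1 place before Pomt2, and in 32.7% of all promoters. The ETS core, CCGGAA, occurred at 1 place before Pomgnt1 and in 12.03% of all promoters. The TATA box, TATAAA, which 12.4% of all promoters hold, was in none of the 3 windows printed. The second listed start of Pomgnt1, not printed, lies in a window of 49.6% G and C with 3 CpG, 1 TATA box and 1 E-box. In the annotation Pomt2 overlaps Gstz1 and Pomt1 overlaps Uck1, in both cases a gene on the opposite strand. The arrays measure transcript levels only, and no measurement here bears on these windows directly.

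All 3 enzymes were measured in the upper part of the signal range on every array. Values are log2 expression values made with RMA. As a percentile among the probe sets of the same array, Pomgnt1 ran from 80.8 to 83.5, Pomt1 from 76.2 to 82.1 and Pomt2 from 70.1 to 74.4. On each of the 6 arrays Pomgnt1 gave the highest signal of the 3 and Pomt2 the lowest. Probe sets differ in how strongly they bind their transcript, so this order of signals is not an order of transcript amounts, and no detection call was available to separate a low value from background.

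None of the 3 enzymes passed the test for a difference between diabetic and wildtype liver. Pomt1, the subunit of the mannosyltransferase complex that shows the widest gap between the groups, read 7.42, 7.66 and 7.02 on wildtype arrays 1 to 3, and 7.73, 7.43 and 7.62 on diabetic arrays 1 to 3. Wildtype 3 was the low value, 0.40 below the next array, and the other wildtype arrays lay within or just below the diabetic range. The group means (± SD, n = 3) were 7.59 ± 0.15 for diabetic and 7.37 ± 0.32 for wildtype arrays. The difference of diabetic minus wildtype was 0.23 (moderated standard error, SE, 0.18; 95% confidence interval -0.19 to 0.65; limma adjusted p = 0.928). On a linear scale this is a ratio of 1.17, with an interval from 0.875 to 1.57.

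Pomt2, the other subunit, read 6.97, 6.84 and 6.25 on wildtype arrays 1 to 3, and 6.62, 6.70 and 6.79 on diabetic arrays 1 to 3. Wildtype 3 was again the lowest array, 0.37 below the next, while wildtype 1 and wildtype 2 were the 2 highest. The diabetic arrays thus all lay inside the wildtype range, and the means (± SD, n = 3) were 6.70 ± 0.09 for diabetic and 6.68 ± 0.38 for wildtype arrays. The difference was 0.019 (SE 0.19; 95% confidence interval -0.44 to 0.48; limma adjusted p = 0.990).

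Pomgnt1, the Golgi enzyme of the 3, read 7.68, 7.85 and 7.56 on wildtype arrays 1 to 3, and 7.79, 7.52 and 7.80 on diabetic arrays 1 to 3. The lowest array was diabetic 2, only 0.041 below wildtype 3, and the highest was wildtype 2, so the groups overlapped over nearly their whole range. The means (± SD, n = 3) were 7.70 ± 0.16 for diabetic and 7.70 ± 0.15 for wildtype arrays. The difference was 0.0048 (SE 0.12; 95% confidence interval -0.28 to 0.29; limma adjusted p = 0.994), the narrowest interval of the 3.

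**Figure D1:**
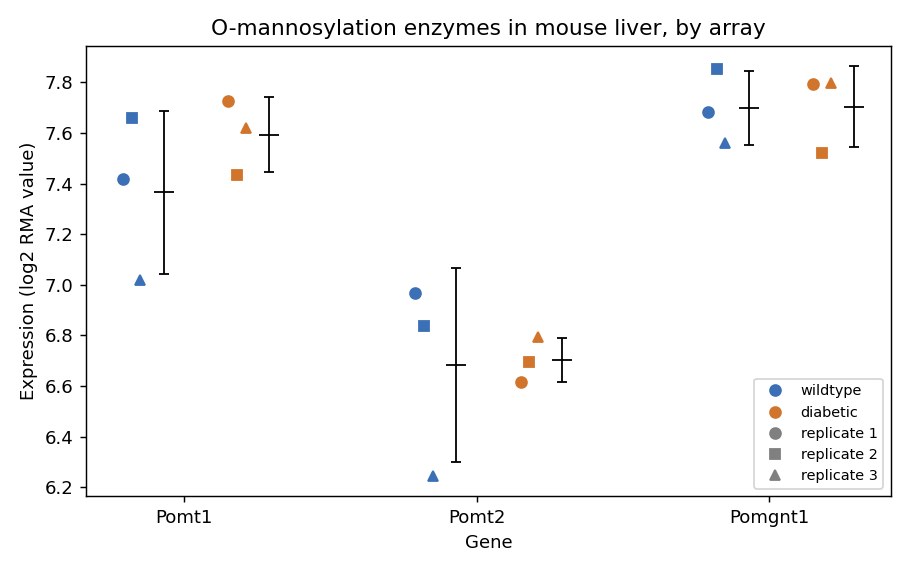
Log2 RMA values (vertical axis) of Pomt1, Pomt2 and Pomgnt1 on each of the 3 wildtype (blue) and 3 diabetic (orange) arrays. Marker shapes give the replicate number, and black bars the group mean ± SD. Wildtype 3 is the lowest point for Pomt1, at 7.02, and for Pomt2, at 6.25, and the groups overlap for all 3 genes.

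Thus 0 of the 3 enzymes were called by limma, 0 had an unadjusted p under 0.05 and 0 had groups that did not overlap. Over all 1246 probe sets limma called 4, or 0.321%, all higher in diabetic liver (Papss2, Mbl2, Btg2 and 1 unnamed probe set), and 37 had an unadjusted p under 0.05. A limma fit that blocked on replicate number called 0 in place of these 4. Groups were fully separate at 98 of the 1246, or 7.87%. A difference of 1 on the log2 scale, that is a doubling or a halving, lay outside the intervals of all 3 enzymes, both in the fit without the block and with it. With the block the 95% confidence intervals were -0.26 to 0.72 for Pomt1, -0.52 to 0.56 for Pomt2 and -0.37 to 0.38 for Pomgnt1. The median SE over all probe sets was 0.11, below the 0.18 and 0.19 of Pomt1 and Pomt2.

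The wildtype arrays decided much of this spread. The wildtype values of Pomt1 spanned 0.64 and those of Pomt2 0.72, wider than for 85.2% and 88.4% of all probe sets, whereas their diabetic values spanned 0.30 and 0.18. Without wildtype 3 the difference was 0.056 for Pomt1, -0.20 for Pomt2 and -0.064 for Pomgnt1, with limma adjusted p-values of 0.942, 0.879 and 0.938. Without wildtype 2, by contrast, Pomt1 differed by 0.38 (limma adjusted p = 0.995). The sign for Pomt2 also turned without diabetic 3, to -0.026, and that for Pomgnt1 without wildtype 1, to -0.0036, without diabetic 1, to -0.040, and without diabetic 3, to -0.042.

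Wildtype 3 did not stand apart in its median, at 5.01 where the 6 array medians ran from 4.93 to 5.06. It was the lowest of the 6 arrays for 22.3% of all probe sets. For 29 of them, or 2.33%, it was over 0.3 below every other array, among which were Pomt1 and Pomt2. Wildtype 2 had more such probe sets, 39 or 3.13%. Its mean correlation with the other arrays was also the lowest of the 6, at 0.984 against 0.988 for wildtype 3. Igfbp1, an insulin-repressed gene of hepatocytes, read 10.09 on wildtype 3 against 6.26 and 6.50 on the other wildtype arrays and 8.90 to 11.52 on the diabetic arrays. All 5 measured of 12 listed hepatocyte markers lay above the array median, with Asgr1 between 12.19 and 12.46 on the 6 arrays. Their mean was 10.76 on wildtype 3 against 10.58 and 10.88 on the other wildtype arrays (diabetic 10.85 to 10.93). These 5 did not move as 1. Diabetic minus wildtype was 1.03 for Mbl2, which was called, 0.27 for Mbl1, 0.017 for Asgr2, -0.0033 for Asgr1 and -0.61 for Igfals. The mean over 7 measured of 11 listed macrophage markers was 6.10 on wildtype 3 and 5.70 and 5.73 on the other wildtype arrays (diabetic arrays 5.56 to 6.32), and that over 3 endothelial markers was 6.93 against 6.56 and 6.73 (diabetic 6.42 to 6.93). The mean over 6 stellate cell and fibroblast markers was 5.16 on wildtype 3 against 4.80 and 4.63 (diabetic 4.67 to 4.91), and that over 3 lymphocyte markers was 5.18 against 5.02 and 5.17 (diabetic 5.0 to 5.17). The gene means ran from 4.14 to 7.12 in the macrophage list and from 5.53 to 8.58 in the endothelial list. They ran from 2.54 to 7.59 in the stellate and fibroblast list and from 4.08 to 5.86 in the lymphocyte list. Above the array median lay 5 of 7 macrophage, 3 of 3 endothelial, 3 of 6 stellate and fibroblast and 2 of 3 lymphocyte markers. Cholangiocyte markers were measured for 0 of 7 listed genes. The part of these markers and of Igfbp1 in the low values of Pomt1 and Pomt2 was not tested. In whole liver RNA, fewer cells of a type and less RNA per cell cannot be told apart.

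Within the same array, the balance between members can be compared without the level of the array as a whole. The log2 difference of Pomt1 minus Pomgnt1 was -0.26, -0.20 and -0.54 on wildtype arrays 1 to 3 and -0.066, -0.087 and -0.18 on diabetic arrays 1 to 3. Every diabetic array thus lay above every wildtype array, by a small margin, and the change between the groups was 0.22. An exact two-sided permutation test gave p = 0.1, the smallest that 3 arrays against 3 allow, and 0.3 after Benjamini-Hochberg adjustment over the 3 pairs compared. With arrays paired by replicate number, an exact sign-flip test gave p = 0.25, the smallest it allows, and 0.75 after that adjustment. Without wildtype 3 the change between the groups was 0.12.

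The balance of the complex partners, Pomt1 minus Pomt2, was 0.45, 0.82 and 0.77 on wildtype arrays 1 to 3 and 1.11, 0.74 and 0.83 on diabetic arrays 1 to 3. The groups overlapped, and the change was 0.21 (exact permutation p = 0.4, adjusted p = 0.6). It was 0.096 without wildtype 1 and 0.10 without diabetic 1. Pomt2 minus Pomgnt1 changed by 0.014, from a mean (± SD, n = 3) of -1.02 ± 0.30 to -1.0 ± 0.18, with an exact permutation p of 0.9 before and after adjustment. This change was -0.14 without wildtype 3 and -0.076 without diabetic 2. None of the 3 pairs passed the adjusted threshold, which a design of this size cannot reach.

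**Figure D2:**
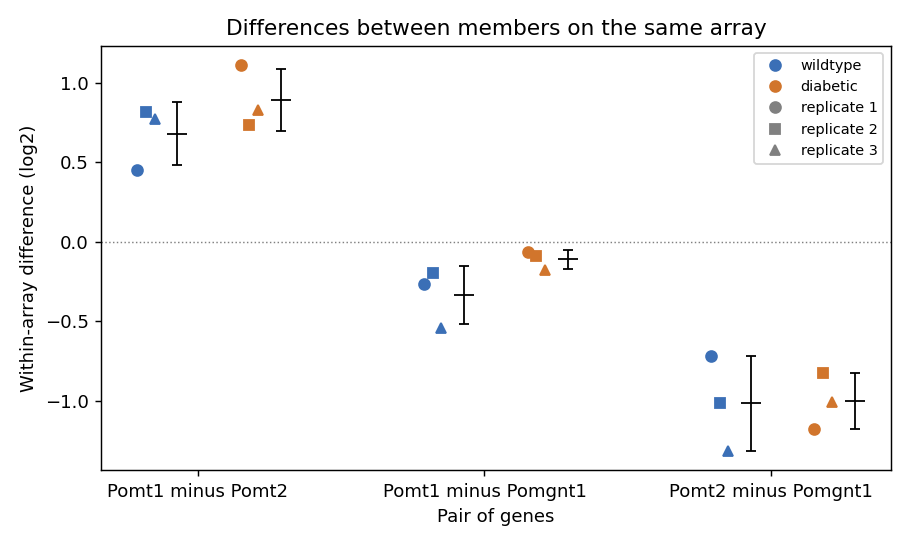
Within-array log2 differences (vertical axis) between the members of each pair, on the wildtype (blue) and diabetic (orange) arrays, with marker shapes for replicate numbers and black bars for the group mean ± SD. For Pomt1 minus Pomgnt1 the diabetic arrays lie between -0.18 and -0.066 and the wildtype arrays between -0.54 and -0.20, while the groups overlap for the other pairs.

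Across the 6 arrays the values of Pomt1 and Pomgnt1 correlated at r = 0.78, those of Pomt1 and Pomt2 at 0.65 and those of Pomt2 and Pomgnt1 at 0.48. These are descriptions over 6 arrays that share 2 groups. Without wildtype 3 the correlations over the other 5 arrays were 0.82, -0.50 and 0.089, so that of Pomt1 with Pomt2 rested on wildtype 3.

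The steps after mannose transfer that build the laminin-binding glycan of dystroglycan are described by 3 measured of 8 listed genes, and 0 of the 3 were called. In this list 2 genes had a higher and 1 a lower mean in diabetic liver, with a median difference of 0.14 against 0.0020 over all probe sets. Wildtype 3 was the lowest array for 2 of the 3 genes, and without it the median difference was 0.092. Large2, which polymerises the xylose and glucuronic acid repeat, read 5.26, 5.30 and 5.23 on wildtype arrays 1 to 3 and 5.38, 5.48 and 5.34 on diabetic arrays 1 to 3. It was the 1 gene of this list whose groups did not overlap, and diabetic minus wildtype was 0.14 (95% confidence interval -0.04 to 0.32; limma adjusted p = 0.928) and 0.12 without wildtype 3.

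B4gat1, which primes that repeat with glucuronic acid, read 8.24, 8.25 and 8.08 on wildtype arrays 1 to 3 and 8.44, 8.35 and 8.21 on diabetic arrays 1 to 3. Diabetic 3 lay among the wildtype arrays, and the means (± SD, n = 3) were 8.33 ± 0.12 for diabetic and 8.19 ± 0.10 for wildtype arrays, a difference of 0.15 (limma adjusted p = 0.928), or 0.092 without wildtype 3. B3galnt2, which adds N-acetylgalactosamine to the glycan, read 7.60, 7.44 and 7.01 on wildtype arrays 1 to 3 and 7.45, 6.98 and 7.43 on diabetic arrays 1 to 3. Wildtype 3 and diabetic 2 were the 2 low arrays, as they were for Pomgnt1, and the B3galnt2 difference was -0.065 (limma adjusted p = 0.990), or -0.24 without wildtype 3. B3galnt2 and Pomgnt1 correlated at r = 0.80 over the 6 arrays and at 0.72 without wildtype 3.

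**Figure D3:**
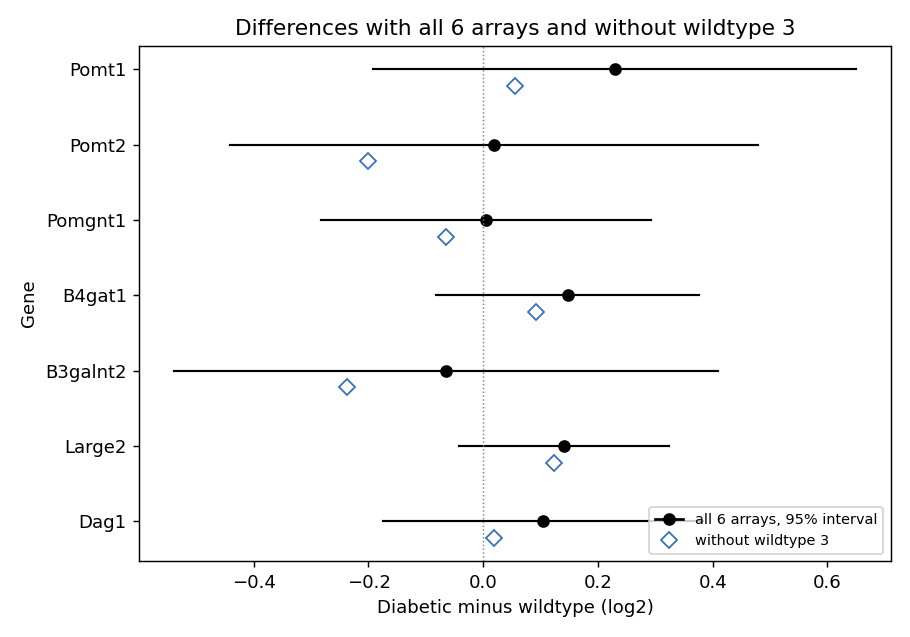
Diabetic minus wildtype differences (horizontal axis, log2) of the 3 members, 3 genes of later steps and Dag1 over all 6 arrays (black points with 95% confidence intervals) and without wildtype 3 (open diamonds). Every interval includes 0, and without wildtype 3 the Pomt1 difference moves from 0.23 to 0.056 and that of Pomt2 from 0.019 to -0.20.

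Dag1, which encodes dystroglycan itself, read 8.39, 8.68 and 8.28 on wildtype arrays 1 to 3 and 8.59, 8.53 and 8.55 on diabetic arrays 1 to 3. The diabetic arrays lay within the wildtype range, and diabetic minus wildtype came to 0.10 (95% confidence interval -0.18 to 0.38; limma adjusted p = 0.954), or 0.019 without wildtype 3. Of 13 listed genes for dystroglycan and its ligands only Dag1 and Agrn were measured. Agrn, a matrix proteoglycan that binds the dystroglycan glycan, differed by -0.097, and by -0.37 without wildtype 3. Wildtype 3 was the lowest array for both. Of the 4 listed TMTC genes, a separate family of O-mannosyltransferases acting on cadherins, 0 were measured.

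The supply of the mannose donor was covered by 7 of 11 listed genes, of which 3 had higher and 4 lower means in diabetic liver and 0 were called (median difference -0.024). Pmm1, a phosphomannomutase, read 6.07, 5.86 and 6.06 on wildtype arrays 1 to 3 and 5.52, 5.76 and 5.81 on diabetic arrays 1 to 3. It was the 1 gene of this list without overlap between the groups, with a difference of -0.30 (SE 0.11; 95% confidence interval -0.57 to -0.03; unadjusted p = 0.0335, limma adjusted p = 0.928). Over the refits without 1 array the Pmm1 difference stayed between -0.37 and -0.21. Gmppb, which makes GDP-mannose, differed by -0.44 (95% confidence interval -0.91 to 0.03; limma adjusted p = 0.928), and between -0.61 and -0.29 over those refits. Its relative Gmppa differed by -0.16 at the brighter of its 2 probe sets and by -0.067 at the other, and Mpi, which interconverts fructose and mannose phosphates, by 0.11. Dpm1 and Dpm2, subunits of the synthase that makes dolichol-phosphate-mannose, were named outside the rule for their role, and differed by -0.024 and 0.061.

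Enzymes that extend other O-mannose glycans, most of which also act on further glycan classes, were covered by 12 of 13 listed genes, with 6 higher, 6 lower and 0 called (median difference 0.011). Fut9, a fucosyltransferase, had groups that did not overlap, with a difference of 0.16 at a dim probe set of 2.47 to 2.73. B4galt1, a galactosyltransferase, differed by -0.35, St3gal3, a sialyltransferase, by -0.24 and Chst10, the sulfotransferase of the HNK epitope, by 0.14. Among 7 measured of 8 listed enzymes that start other O-linked glycans, 2 had higher and 5 lower means, and 0 were called (median difference -0.079). Xylt1, which starts glycosaminoglycan chains, had groups that did not overlap and differed by -0.16. Galnt1, which starts mucin-type glycans, differed by 0.21, Pofut2, a protein O-fucosyltransferase, by -0.079 and Ogt, which adds O-GlcNAc to proteins inside the cell, by -0.16 (-0.51 without wildtype 3). The limma adjusted p-values of these 8 named genes ran from 0.928 to 0.990.

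**Figure D4:**
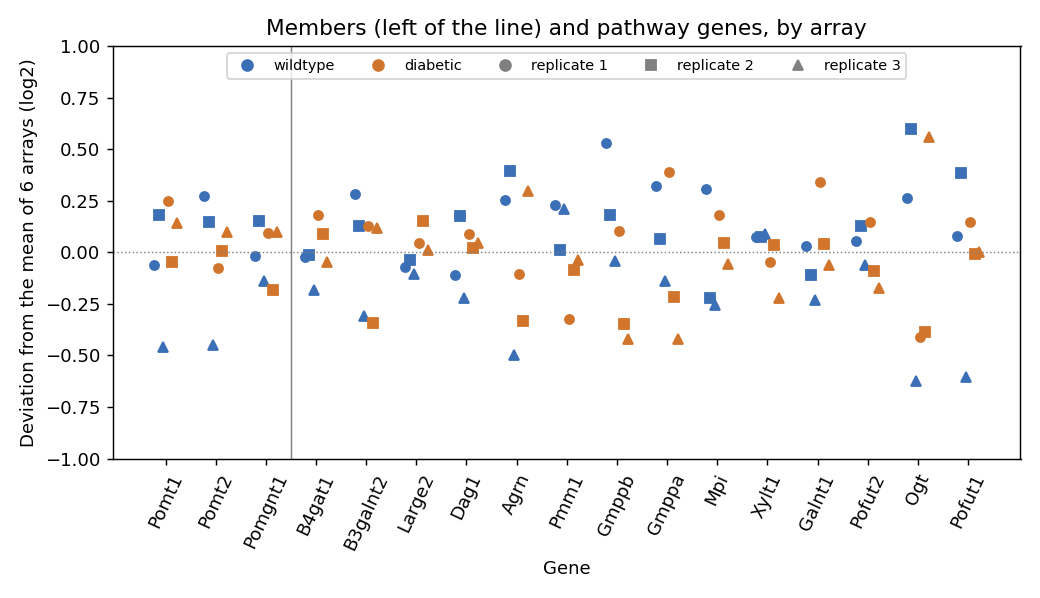
Deviation of each array from the gene's mean over the 6 arrays (vertical axis, log2) for the 3 members, left of the line, and for pathway genes, with wildtype in blue, diabetic in orange and shapes for replicate numbers. Wildtype 3 (blue triangle) is the lowest point for Pomt1, Pomt2, B4gat1, Large2, Dag1, Agrn, Mpi, Galnt1, Ogt and Pofut1. Diabetic 2 is the lowest for Pomgnt1 and B3galnt2.

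In all, 0 of the 31 measured pathway genes beside the 3 enzymes were called by limma, 1 had an unadjusted p under 0.05, and 4 of the 31 (Pmm1, Large2, Fut9 and Xylt1) had groups that did not overlap, beside 7.87% of all probe sets. Of the 31, 14 had higher and 17 lower means, with a median difference of -0.011. Wildtype 3 was the lowest array for 12 of the 31, or 38.7%, beside 22.3% of all probe sets.

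The genes whose pattern was most like each enzyme were ranked by Pearson's r of the deviations from the group means over the 6 arrays, among 908 other genes. For Pomt1 these were B4galnt1, a ganglioside synthase (r = 0.999), Anapc2, a subunit of the anaphase-promoting complex (0.99), and Rfng, a fringe glycosyltransferase (0.99). For Pomt2 they were Il1f6, a cytokine of the interleukin family (0.997), and Gdnf, a neurotrophic factor (0.99). For Pomgnt1 they were Copg1, a coatomer subunit (0.99), Ovgp1, an oviduct glycoprotein (0.99), and St8sia6, a sialyltransferase (0.98). None of these was a gene of the O-mannose pathway lists. Il1f6 (3.68 to 3.97 over the 6 arrays), Gdnf (3.62 to 3.82) and St8sia6 (2.95 to 3.21) were dim probe sets below every array median. Whether they stood above background is unknown. With so few arrays a high r is common, since 39, 19 and 23 of the 908 genes had r over 0.9 with Pomt1, Pomt2 and Pomgnt1. Over the undivided values the r of the first-ranked genes was 0.57 for B4galnt1, 0.59 for Il1f6 and 0.98 for Copg1.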

How the data were processed

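The authors made the deposited values, taken here as log2 from their range of 2.03 to 13.45, with RMA, per the submitters' processing notes, which reach this work without a version or settings. RMA normalizes between arrays, so a shift common to most genes would be removed. The number of arrays limits the precision.

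Of 1246 probe sets, 963 were named through RefSeq accessions (GRCm38.p6), giving 909 genes, each represented by its probe set of highest mean. Diabetic and wildtype were compared with limma 3.58.1 (lmFit, eBayes) in R 4.3.3 over all probe sets, with Benjamini-Hochberg adjustment and a threshold of 0.05. The script was tested on simulated data. Pairs of members were compared by exact permutation, and by exact sign flips where arrays were paired by replicate number.

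The members and the gene lists were chosen with earlier results of these data known. Named genes were the members, the genes of later steps, Dag1, up to 4 genes per other list by unadjusted p, and up to 3 genes most like each member; some genes that the lists or the rule would name are not reported here. Pofut1 and Igfbp1 were added after their values were seen.

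Deviations from the group means correlated between same-numbered arrays at 0.397, 0.138 and 0.162, each above the limit of 0.1. Arrays with different numbers were not compared in this way, so these values cannot show whether the numbers pair the arrays. The labels do not say what the numbers stand for. Printed errors, intervals and p-values are from the fit without the block unless the block is named. With the replicate block limma called 0 probe sets in place of 4.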

Additional observations from a re-analysis of the deposited data

How the results depend on the processing

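The count of 4 called probe sets fell to 0 in the unmoderated linear model, in the trended robust eBayes fit and under the replicate block, and was 0 to 1 with 1 array left out; the cause was not tested. None of the 3 members was called under any of 13 alternatives each, with limma adjusted p-values from 0.827 to 0.999, and the block changed no call of a member (adjusted p = 0.866 for Pomt1, 0.982 for Pomt2 and 0.992 for Pomgnt1). The Pomt1 difference stayed positive, from 0.056 to 0.38 with 1 array left out. That of Pomt2 ran from -0.20 to 0.16 and that of Pomgnt1 from -0.064 to 0.097 with 1 array left out, and array weights gave -0.025 for Pomgnt1. The change of Pomt2 minus Pomgnt1 was -0.00066 after quantile normalization and ran from -0.14 to 0.16 with 1 array left out, while the other pairs kept their sign, from 0.096 to 0.29 for Pomt1 minus Pomt2 and from 0.12 to 0.29 for Pomt1 minus Pomgnt1. An average over several probe sets could not be formed, since each member has 1. Leaving out wildtype 3 from the lists was chosen after seeing the data. How far the dimmer pathway genes stood above background is unknown without detection calls.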

Other observations

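Beside Pomt1 and Pomt2, 27 further probe sets lay over 0.3 below every other array on wildtype 3, and 23 of the 29 in all were named. They included Fgfr4, the hepatocyte receptor for bile acid-linked fibroblast growth factor signals, 0.62 below the next array, and Pofut1, a protein O-fucosyltransferase that modifies Notch receptors, 0.59 below. Col18a1, a basement membrane proteoglycan, lay 0.51 below, Naglu, a lysosomal enzyme of heparan sulfate breakdown, also 0.51, and Notch1 0.41. These genes were picked by that gap after the values were seen. The other wildtype arrays had 7 (wildtype 1) and 39 (wildtype 2) such probe sets, and the diabetic arrays 6 or 7 each.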
